A study of Homo sapiens with 6 samples.

Results

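The transcripts of 10 genes of the machinery that switches on RAC, a small GTPase that drives actin assembly at the front of a migrating cell, were followed in Jurkat cells given the chemokine CXCL12. The genes were TIAM1, TIAM2, VAV1, VAV2, VAV3, DOCK2, DOCK8, DOCK10, ELMO1 and PREX1. They were taken by their symbols in the platform annotation, and each had 1 probe set among the 21448 of the array table. They are 10 of 17687 named genes on the array. RNA came from Jurkat cells, an established line derived from a human T-cell acute lymphoblastic leukaemia. All 6 samples were cultured with 10% serum and then starved of serum for 90 min. The CXCL12 group (n = 3) then received CXCL12 at 100 ng/ml for 15 min, and the untreated group (n = 3) did not. Each sample was read on 1 Affymetrix array, and the table gives log2 signals. Jurkat is 1 cell line grown in culture, and its samples are titled biological replicates with no statement that they were separate cultures. The p-values therefore measure only the spread among these 6 samples, part of which may be technical.

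CXCL12 acts through CXCR4, a receptor coupled to inhibitory G proteins, and directs T cells to migrate. Between that receptor and the cytoskeleton stand guanine nucleotide exchange factors, which load RAC with GTP. Those of the DBL type (TIAM, VAV and PREX) carry a DH and PH domain pair, while those of the DOCK type have an unrelated catalytic domain and in part work with an ELMO scaffold. ELMO1 is therefore a partner of exchange factors, not an exchange factor itself, and DOCK8 is best known for acting on CDC42, a relative of RAC. These proteins are mostly controlled by phosphorylation, lipids and location, and the arrays measured only their transcripts.

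None of the 10 genes passed the adjusted threshold after 15 min of CXCL12. Of the 8 that could be tested, 4 had a positive and 4 a negative change, from -0.43 for TIAM1 to 0.24 for DOCK10 on the log2 scale. TIAM2 and DOCK8 had mean signals below 4.44, the 25th percentile of all probe set means, and were left out of the test as dim. The comparison was fitted with limma over 16086 probe sets, and its Benjamini-Hochberg adjusted p was 0.996 for each of the 8 genes. Over all tested probe sets, 0.0124% passed, which are EGR1 and CD69. TIAM1 alone of the 8 genes had a limma p below 0.05 before adjustment, where 4.73% of all tested probe sets did. The TIAM1 signal was lower with CXCL12, as in 2.01% of tested probe sets, and 2.72% were higher at that level. The median change of the 8 genes was 0.0062, beside 0.00228 for all tested probe sets. Relative to the untreated mean, the median over the 8 genes lay at 0.02, 0.000528 and 0.00493 in CXCL12 arrays, against -0.18, 0.18 and 0.02 in untreated arrays (replicates 1 to 3).

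**Figure D1:**
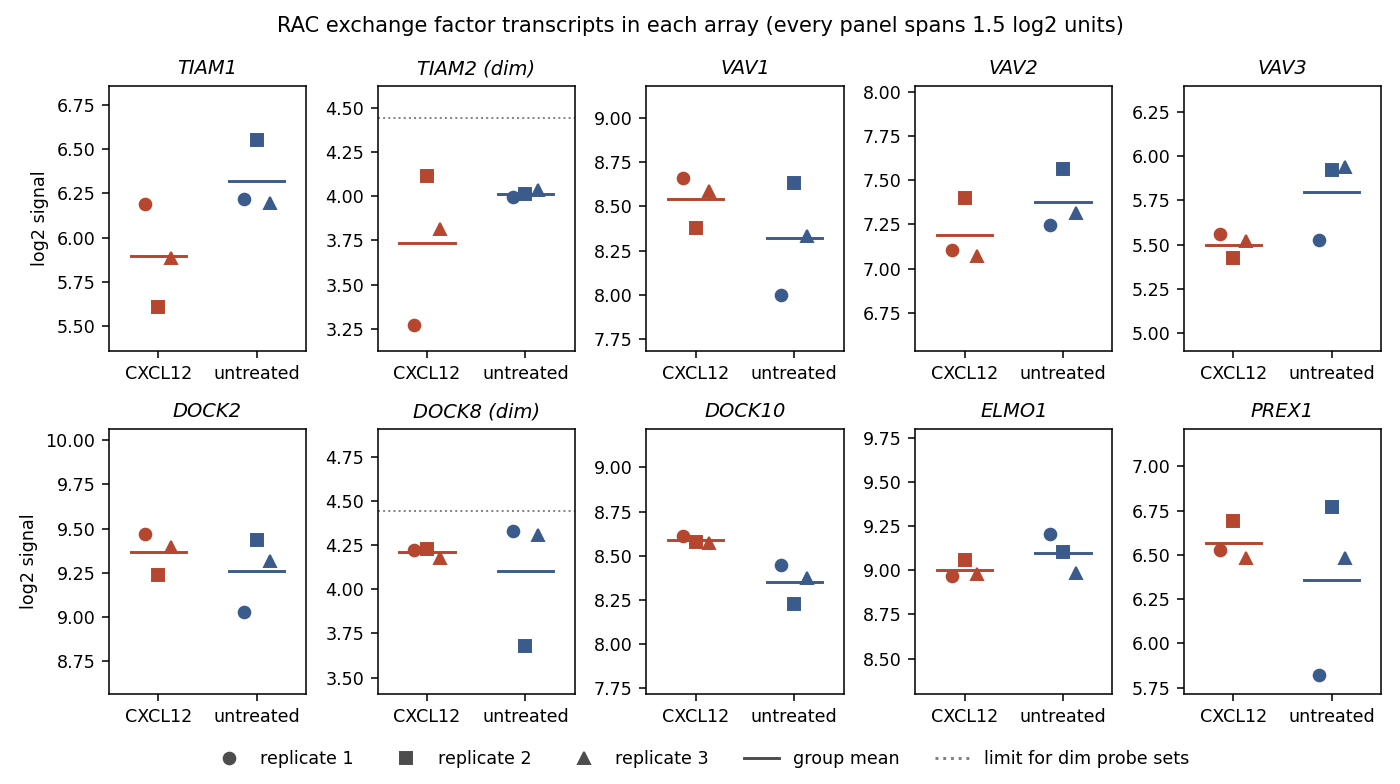
Log2 signal of each of the 10 genes (vertical axes, each spanning 1.5 log2 units) in the 3 CXCL12 arrays (red) and the 3 untreated arrays (blue). Marker shapes give the replicate number, horizontal bars the group means, and the dotted line the 4.44 below which probe sets counted as dim. The groups are separate for TIAM1, by a narrow gap, and for DOCK10, and overlap for the other 8 genes. Over all tested probe sets they are separate in 9.54%, in either direction.

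The arrays were close to each other, with medians from 6.18 to 6.22 and correlations from 0.979 to 0.991 over the tested probe sets. Untreated replicate 1 stood apart, with a mean correlation of 0.982 with the others and a place of -27.8 on the first principal component, where the other 5 arrays lay between -5.84 and 11.6. It was the lowest of the 6 arrays for VAV1, DOCK2 and PREX1 and the highest for ELMO1. The changes of these genes are therefore given with and without it. EGR1, an immediate early transcription factor, marked the response, with 8.13, 7.80 and 7.98 in CXCL12 arrays, against 5.94, 5.91 and 6.12 in untreated arrays (replicates 1 to 3). Each of 10 T cell markers, CD3D, CD3E and LCK among them, was above the limit for dim probe sets, which 16086 of the 21448 probe sets pass by construction. Of 17 markers of B, myeloid, NK, erythroid, epithelial and fibroblast cells, 3 had no named probe set and 9 were above the same limit: CD79A, CD14, CSF1R, NCAM1, HBB, KRT8, COL1A1, COL1A2 and DCN. The other 5, MS4A1, LYZ, KLRD1, EPCAM and CDH1, were dim. Passing that limit therefore does not set T cells apart from other types, and the cell type rests on the sample labels. Mean signals ran from 8.26 (CD2) to 11.4 (LCK) for the T cell markers. For the markers of other cell types they ran from 2.59 (KLRD1) to 7.92 (CD79A). Signals of different probe sets give no order of transcript levels. NCAM1, an NK cell marker, had a mean of 6.68 and a change of -0.35 with an unadjusted limma p of 0.0392, and its part in any result here was not tested. Its p was 0.05 or above in 4 of the 6 fits that left out 1 array, and its change was -0.22 without untreated replicate 1. Fewer cells with a transcript and less of it per cell cannot be told apart in such bulk RNA.

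TIAM1 and VAV3 had the 2 most negative changes, and PREX1 alone among the 10 genes held an EGR motif in the promoter windows searched. The windows of TIAM1 and VAV3 differ widely in base composition. Which start sites the cells use was not tested, and a listed start need not be the main one of its gene. For TIAM1, VAV3 and PREX1, the sequences before 1 listed start site each are shown. They are 250 bases before the start from RefSeq (build GRCh38.p14), read in the direction of the gene: TIAM1 chr21:31559088-31559337 (minus strand), VAV3 chr1:107688500-107688749 (minus strand) and PREX1 chr20:48828000-48828249 (minus strand). Capitals mark matches on either strand to the EGR motif (GCGTGGGCG or GCGGGGGCG), the AP-1 motif (TGACTCA) or the SP1 motif (GGGCGG).
TIAM1: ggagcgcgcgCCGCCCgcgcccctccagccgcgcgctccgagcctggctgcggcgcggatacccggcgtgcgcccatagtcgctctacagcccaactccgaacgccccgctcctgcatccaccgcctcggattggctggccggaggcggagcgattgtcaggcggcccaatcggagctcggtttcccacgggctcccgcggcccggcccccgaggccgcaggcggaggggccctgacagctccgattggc
VAV3: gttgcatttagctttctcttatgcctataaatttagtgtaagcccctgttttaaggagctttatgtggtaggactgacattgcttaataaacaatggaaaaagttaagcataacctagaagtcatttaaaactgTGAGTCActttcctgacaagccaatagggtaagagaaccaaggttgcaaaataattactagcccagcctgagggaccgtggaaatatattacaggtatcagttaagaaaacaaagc
PREX1: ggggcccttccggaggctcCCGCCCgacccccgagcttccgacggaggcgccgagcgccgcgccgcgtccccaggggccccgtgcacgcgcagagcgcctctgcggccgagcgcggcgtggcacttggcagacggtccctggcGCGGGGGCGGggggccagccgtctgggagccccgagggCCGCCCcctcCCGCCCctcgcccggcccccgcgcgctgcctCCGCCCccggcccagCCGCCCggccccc
In PREX1 the EGR match overlaps 1 of 6 SP1 matches. With the 50 bases after the start added, GC content was 76.0% for TIAM1, 38.0% for VAV3 and 85.7% for PREX1, beside a median of 58.7% over 35116 promoters. These windows hold 46 CG dinucleotides in TIAM1, 1 in VAV3 and 49 in PREX1, beside a median of 14.

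All 10 genes were matched in the promoter table, with 19 start sites between them. Start sites not listed there were not searched. The EGR motif was in 1 of these 19 windows (PREX1) and in 5.37% of all promoter windows of that length. The AP-1 motif was in 1 (VAV3) and in 4.2% of all. The SP1 motif was in 9 windows, 1 for each gene but VAV3, and in 42.6% of all. The CArG box, the motif of the serum response factor, was in none of the 19 and in 1.16% of all. A match is a string of letters and not a measured binding site, and a window without a match says nothing about the factor.

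TIAM1, an exchange factor for RAC1 named for T-lymphoma invasion and metastasis, had the largest change of the 8. Its log2 signal was 6.19, 5.61 and 5.89 in CXCL12 arrays, against 6.22, 6.55 and 6.19 in untreated arrays (replicates 1 to 3). All CXCL12 arrays lay below all untreated arrays, but CXCL12 replicate 1 missed the lowest untreated array by only 0.00353. The means were 5.89 ± 0.29 with CXCL12 and 6.32 ± 0.20 untreated (SD, n = 3 each), a ratio of 0.743 (95% interval 0.582 to 0.949, SE 0.16 on the log2 scale). The limma unadjusted p was 0.0213 and the adjusted p 0.996, so the change did not pass. A change at least as far from 0 was found in 1.18% of all tested probe sets. Arrays of the groups failed to overlap downward in 4.48% of all tested probe sets, and TIAM1 was 1 of the 8 genes to do so. Omitting CXCL12 replicate 1 gave a TIAM1 change of -0.58, omitting CXCL12 replicate 2 gave -0.28, and omitting untreated replicate 2 gave -0.31. In the last 2 of these fits the limma unadjusted p was above 0.05 (0.105 and 0.0974), as it was at 0.0515 without CXCL12 replicate 3.

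TIAM2, its paralogue, was dim. Its signal was 3.27, 4.11 and 3.82 in CXCL12 arrays, against 3.997, 4.01 and 4.03 in untreated arrays (replicates 1 to 3). The CXCL12 arrays spread on both sides of the untreated ones, with CXCL12 replicate 1 far below the other 5 arrays. In a fit with no filter the TIAM2 change was -0.28 (95% interval -0.67 to 0.12, limma unadjusted p = 0.152).

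PREX1, an exchange factor activated by the beta-gamma subunits of G proteins and by the lipid PIP3, had 6.53, 6.69 and 6.48 in CXCL12 arrays, against 5.82, 6.77 and 6.48 in untreated arrays (replicates 1 to 3). The CXCL12 arrays lay within the untreated range, whose SD of 0.49 was the widest of the 10 genes in either group, and whose low end was untreated replicate 1. The change was 0.21 (95% interval -0.22 to 0.64, limma unadjusted p = 0.314) and turned to -0.06 without that array. Without untreated replicate 2, it was 0.42.

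The VAV family links antigen receptor kinases to RAC. VAV1, its blood cell member, had 8.66, 8.38 and 8.59 in CXCL12 arrays, against 7.998, 8.63 and 8.34 in untreated arrays (replicates 1 to 3). The groups overlapped, with untreated replicate 2 among the high CXCL12 arrays. The VAV1 change was 0.22 (95% interval -0.13 to 0.57, limma unadjusted p = 0.195). Omitting untreated replicate 1 gave 0.06, and omitting untreated replicate 2 gave 0.38.

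VAV2, the broadly expressed member, had 7.11, 7.40 and 7.07 in CXCL12 arrays, against 7.25, 7.56 and 7.31 in untreated arrays (replicates 1 to 3). CXCL12 replicates 1 and 3 were below all untreated arrays, and replicate 2 was within their range. The VAV2 change was -0.18 (95% interval -0.48 to 0.12, limma unadjusted p = 0.21). It was -0.28 without CXCL12 replicate 2 and -0.09 without untreated replicate 2.

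VAV3, the third member of the family, had 5.56, 5.42 and 5.52 in CXCL12 arrays, against 5.53, 5.92 and 5.94 in untreated arrays (replicates 1 to 3). The CXCL12 arrays were tight (SD 0.07), and untreated replicate 1 fell among them while the other untreated arrays lay above. The VAV3 change was -0.30, with a 95% interval from -0.60 to 0.00438 and a limma unadjusted p of 0.0529. Without untreated replicate 1 it was -0.43 (limma unadjusted p = 0.00443), and without untreated replicate 3 it was -0.22. A change at least as far from 0 as that of VAV3 in all 6 arrays was found in 5.86% of tested probe sets.

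The DOCK family holds the main RAC activator of lymphocyte migration, DOCK2. DOCK2 had 9.47, 9.24 and 9.39 in CXCL12 arrays, against 9.03, 9.44 and 9.32 in untreated arrays (replicates 1 to 3). The groups overlapped, and untreated replicate 1 was the low value. The DOCK2 change was 0.11 (95% interval -0.19 to 0.40, limma unadjusted p = 0.453), and -0.00971 without untreated replicate 1. On the fold scale the interval with all arrays ran from 0.876 to 1.32.

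DOCK10, which acts on CDC42 and RAC, had 8.61, 8.58 and 8.57 in CXCL12 arrays, against 8.45, 8.23 and 8.37 in untreated arrays (replicates 1 to 3). All CXCL12 arrays lay above all untreated ones and close together (SD 0.02). Such separation upward was seen in 5.05% of tested probe sets, and DOCK10 was 1 of the 8 genes to show it. The ratio was 1.18 (95% interval 0.987 to 1.41, limma unadjusted p = 0.0665, adjusted p = 0.996), so the change did not pass. The log2 change stayed between 0.18 and 0.29 in the 6 fits that omitted an array.

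DOCK8, a regulator of lymphocyte shape during migration, was dim. It had 4.22, 4.23 and 4.18 in CXCL12 arrays, against 4.33, 3.68 and 4.30 in untreated arrays (replicates 1 to 3). The CXCL12 arrays sat within the untreated range, whose low end was untreated replicate 2. In a fit with no filter the DOCK8 change was 0.11 (95% interval -0.26 to 0.47, limma unadjusted p = 0.541).

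ELMO1, the scaffold that pairs with DOCK2 in lymphocytes, had 8.97, 9.06 and 8.98 in CXCL12 arrays, against 9.20, 9.10 and 8.98 in untreated arrays (replicates 1 to 3). The groups overlapped, with the CXCL12 arrays at the lower end. The ELMO1 change was -0.09 (95% interval -0.35 to 0.16, limma unadjusted p = 0.445). In the 6 fits that omitted an array it lay between -0.15 and -0.04, nearest to 0 without untreated replicate 1.

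**Figure D2:**
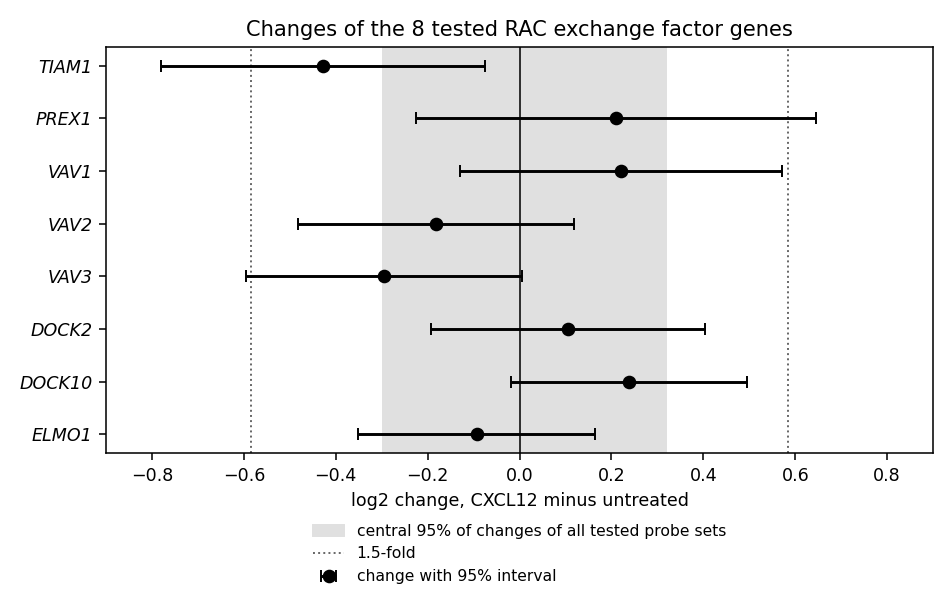
Log2 change, CXCL12 minus untreated, of the 8 tested genes with limma's 95% interval (horizontal axis), over the central 95% of the changes of all tested probe sets (grey, -0.30 to 0.32) and a 1.5-fold change either way (dotted). The interval of TIAM1 excludes 0 before adjustment, and those of the other 7 genes include it.

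These intervals, taken gene by gene before adjustment, give a range of plausible changes for each gene. They are not the detection limit of the adjusted test, which TIAM1 did not pass with a change of -0.43. For VAV1, VAV2, DOCK2, DOCK10 and ELMO1, 5 of the 8 genes, the whole 95% interval stayed inside 1.5-fold in both directions, as it did for 89.9% of all tested probe sets. For TIAM1, VAV3 and PREX1 it reached beyond. The median half-width of the interval was 0.30 on the log2 scale for the 8 genes and 0.29 for all tested probe sets. The plot of changes with single arrays left out shows which genes lean on which array.

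**Figure D3:**
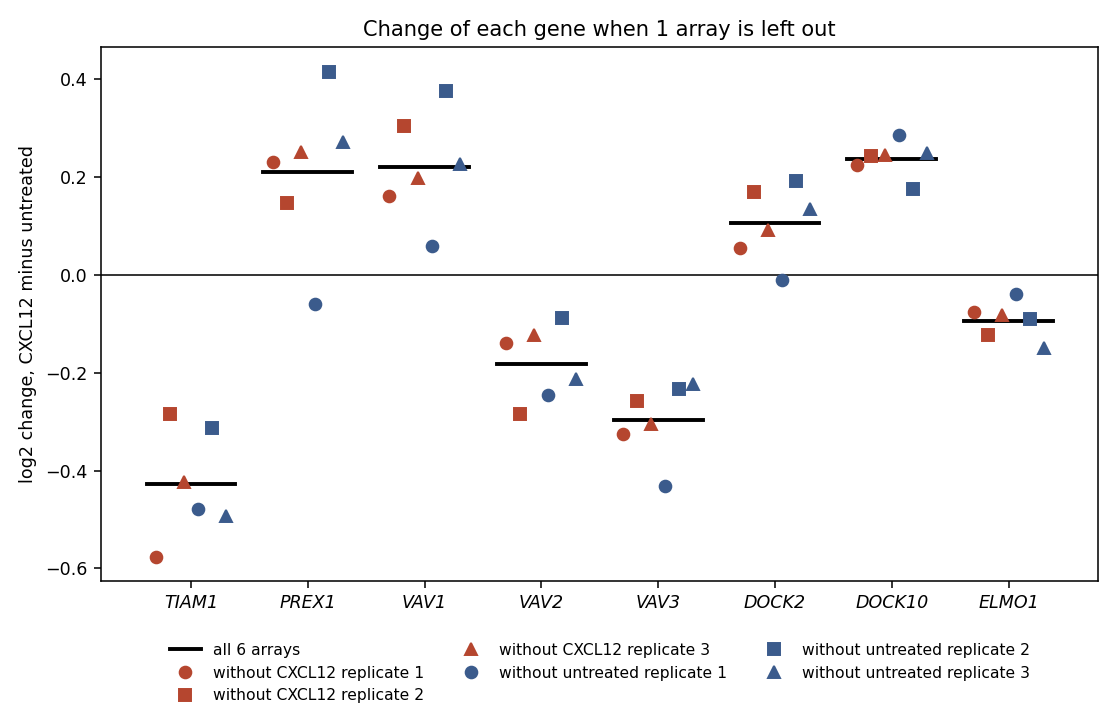
Log2 change, CXCL12 minus untreated, of the 8 tested genes with all 6 arrays (black bars) and with each CXCL12 array (red) or untreated array (blue) left out. Without untreated replicate 1, PREX1 and DOCK2 come to lie at -0.06 and -0.00971 and VAV3 moves to -0.43, while TIAM1, VAV2, VAV3 and ELMO1 stay below 0 and VAV1 and DOCK10 above 0 in every refit shown.

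Members of 1 family, and DOCK2 with its scaffold ELMO1, were also compared within each array as log2 ratios, over 5 pairs. VAV1 over VAV3 was 3.10, 2.95 and 3.07 in CXCL12 arrays, against 2.47, 2.71 and 2.39 in untreated arrays (replicates 1 to 3). All CXCL12 arrays were above all untreated arrays, untreated replicate 1 included. The difference was 0.52, with an exact two-sided permutation p of 0.1, the smallest that 3 against 3 arrays can give, and 0.5 after Benjamini-Hochberg adjustment over the 5 pairs. VAV1 over VAV2 was 1.35 ± 0.32 in CXCL12 and 0.95 ± 0.17 in untreated arrays (SD, n = 3 each), with overlapping arrays and an exact permutation p of 0.3. The 3 other pairs also overlapped. The differences were 0.11 for VAV2 over VAV3, -0.13 for DOCK2 over DOCK10 and 0.20 for DOCK2 over ELMO1. These pairs were set with earlier results known, and a ratio between probe sets gives no order of transcript levels, so the values are a description.

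**Figure D4:**
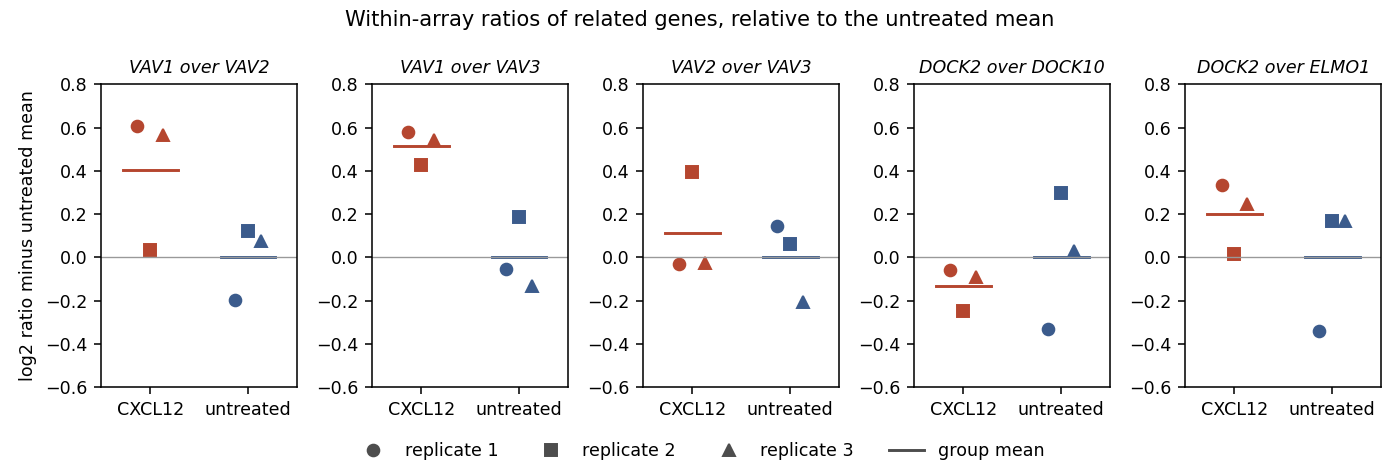
Log2 ratio of 2 related genes within each array, minus the mean of that ratio in untreated arrays (vertical axis), for CXCL12 arrays (red) and untreated arrays (blue). Marker shapes give the replicate number and bars the group means. The groups are separate for VAV1 over VAV3, by 0.52 between the means, and overlap for the other 4 pairs.

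The probe sets most like TIAM1 across the 6 arrays were those of ASF1B, a histone chaperone (Pearson r = 0.982), MARCHF8, a ubiquitin ligase (r = 0.977), and PPP1R9B, an actin-binding scaffold (r = 0.974). For DOCK2, the tested member with the largest p, they were PGD, an enzyme of the pentose phosphate pathway (r = 0.998), TBC1D5 (r = 0.993) and CIC, a transcriptional repressor (r = 0.991). A correlation of at least 0.95 was found for 24 of the 16086 probe sets with TIAM1 and for 211 with DOCK2. The named genes were picked as the highest of so many values, and no count expected between unrelated probe sets was worked out. These points are the same 6 arrays, so a shared difference between groups or a single array such as untreated replicate 1 enters each value, and the likeness is a description.

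Around the 10 genes, 74 related genes were listed in 7 groups, among them exchange factors of RHOA or of cell division. Of the 74, 9 had no named probe set, 6 were dim and 59 were tested. Of the 59, 0 passed the adjusted threshold in limma, and 32 had a positive and 27 a negative change, beside 50.7% positive over all tested probe sets. Before adjustment, 2 of the 59 had a limma p below 0.05, SOS1 and CXCR4, both lower, where 4.73% of all tested probe sets had one and 2.01% were lower. That count is near the share over all probe sets. The median change of the 59 was 0.00976.

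Other exchange factors showed the change nearest to that of TIAM1. SOS1, which acts on RAS and, in a complex, on RAC, had 7.08, 6.96 and 6.75 in CXCL12 arrays, against 7.67, 7.17 and 7.22 in untreated arrays (replicates 1 to 3). All CXCL12 arrays were below all untreated arrays, and untreated replicate 1 was the highest of the 6. The SOS1 change was -0.42 (95% interval -0.76 to -0.09, limma unadjusted p = 0.0179, adjusted p = 0.996). With each array left out it ran from -0.51 to -0.26, and its p was 0.05 or above in 2 of the 6 fits. These were without untreated replicate 1 (-0.26, limma unadjusted p = 0.0758) and without CXCL12 replicate 3 (-0.33, limma unadjusted p = 0.0821). SOS2, its paralogue, had 0.24 and ARHGEF7, the PAK-interacting factor beta-PIX, 0.15. In that group of 12, 7 were tested, with 4 positive and 3 negative changes and a median of 0.07. Of the other DOCK and ELMO genes, 8 of 10 were tested, 5 positive and 3 negative, with a median of 0.08. DOCK5 had 0.24, with all CXCL12 arrays above all untreated ones, DOCK4 -0.18 and DOCK6 0.13. Of 7 tested exchange factors of RHOA or of cell division, 6 were positive and 1 negative, with a median of 0.04. The negative one was ECT2, which starts cytokinesis, with -0.24, and ARHGEF12 and ARHGEF3 had 0.14 and 0.15.

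The GTPases themselves and what acts on or below them had small changes. Of 6 tested GTPases, 1 was positive and 5 negative, with a median of -0.06. RAC1, the broadly expressed RAC, had -0.10, RHOG, which recruits ELMO, -0.15, and RAC3 -0.09, and all 6 intervals lay within 1.5-fold. Of 10 tested RAC inhibitors, 2 were positive and 8 negative, with a median of -0.06. ABR, a GTPase-activating protein, had -0.20, and ARHGAP15 and RACGAP1, of the same class, had 0.15 and 0.12. Of 9 tested effectors, 6 were positive and 3 negative, with a median of 0.11. WASF2, the WAVE protein that starts actin branching, had -0.23, while NCKAP1 and NCKAP1L, subunits of its complex, had 0.20 and 0.14. Each of these groups had 0 genes past the adjusted threshold and 0 with an unadjusted limma p under 0.05.

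Upstream of the exchange factors, 12 of 14 listed genes were tested, with 8 positive and 4 negative changes and a median of 0.05. CXCR4, the CXCL12 receptor, had -0.37 with an unadjusted limma p of 0.0247, and its arrays overlapped. With each array left out the CXCR4 change ran from -0.47 to -0.25, and its p was 0.05 or above in 3 of the 6 fits. These were without untreated replicate 1 (-0.25, limma unadjusted p = 0.0964), without CXCL12 replicate 1 (-0.31, limma unadjusted p = 0.0909) and without CXCL12 replicate 3 (-0.34, limma unadjusted p = 0.0768). PIK3CG, the PI3-kinase that G proteins activate, had 7.82, 7.86 and 7.84 in CXCL12 arrays, against 7.65, 7.63 and 7.55 in untreated arrays (replicates 1 to 3), a change of 0.23 with separate arrays. LCP2, the adaptor SLP-76 that binds VAV1, had 0.19, also with separate arrays. Neither reached an unadjusted limma p under 0.05. Over the 59 genes, arrays were separate upward for 4 and downward for 1, beside 9.54% of all tested probe sets in either direction.

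**Figure D5:**
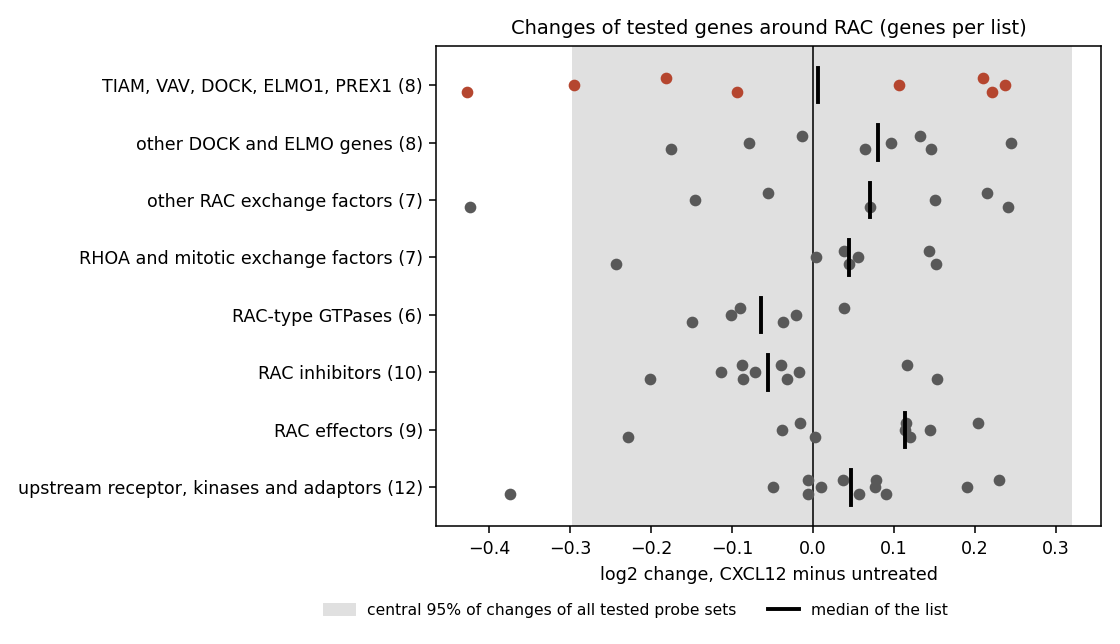
Log2 change, CXCL12 minus untreated, of each tested gene (points) in the group of TIAM, VAV, DOCK, ELMO1 and PREX1 (red) and in 7 lists of related genes (grey points), with list medians (black bars) over the central 95% of the changes of all tested probe sets (grey band). TIAM1, SOS1 and CXCR4 lie below the band, at -0.43, -0.42 and -0.37, and no gene lies above it.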

How the data were processed

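The deposited table holds log2 signals, 1 per probe set and array. The submitters' processing notes name RMA and the Transcriptome Analysis Console as the authors' tools; versions, settings and the build were not given in the sources used here. RMA subtracts background, normalizes arrays to each other and pools probes, so changes common to all transcripts are removed. Detection calls and scan batches were not analysed here, and the number of arrays limits the precision. Values ran from 1.99 to 13.1.

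The platform annotation, which can be old, gave a symbol to 17709 of 21448 probe sets. All 10 members matched RefSeq by gene ID. Dim probe sets, those under the 25th percentile of means, were removed. The model was limma's lmFit and eBayes (version 3.58.1, R 4.3.3), two-sided, without covariates, on all 6 arrays, with Benjamini-Hochberg adjustment and a threshold of 0.05. The code of the fit was tried on simulated data with independent noise, which does not measure its power or error rate on these arrays.

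The members, lists, promoter motifs and pairs were chosen with earlier results of these data known. All members are named. Of each list the 3 genes with the smallest p are named, with CXCR4, EGR1 and CD69. Markers named as examples were picked after their values were seen. The likeness rule took the 3 named probe sets of highest r for the members with the smallest and the largest p. Same-numbered arrays deviated from their group means with correlations of -0.19, -0.11 and 0.11, and no pairing is stated, so numbers were not taken as pairs. Alternatives were filters, renormalization, a replicate block, array weights, a trended prior, averaged probe sets and each array left out.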

Additional observations from a re-analysis of the deposited data

How the results depend on the processing

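No member and no gene of the 7 lists of related genes passed the adjusted threshold in any of the 15 refits. The count of probe sets past it was 2 in the reported fit. It was 1 when dim probe sets were kept, under median centring and under cyclic loess, and 1 to 2 with each array left out. It was 3 when the dimmer 50% of probe sets were dropped and with the trended prior, 4 with array weights, and 2 in the other refits. The count of members with an unadjusted p under 0.05 was 1 of 8 in the reported fit (TIAM1), beside 4.73% of all tested probe sets. It became 0 when the dimmer 50% of probe sets were dropped, a filter that removed TIAM1 and VAV3, and their absence moved the members' median change to 0.158; 3.84% of the remaining probe sets had such a p. It became 2 with quantile normalization again (4.44% of probe sets), median centring (4.63%) and cyclic loess (4.41%), each time TIAM1 and VAV3, and 3 with array weights (DOCK10 added; 6.51%). With each array left out it was 0 to 3: 3 without untreated replicate 1 (4.98%), 2 without untreated replicate 2 (VAV1 and PREX1; 5.18%), 0 without CXCL12 replicate 2 (6.30%) and 0 without CXCL12 replicate 3 (3.41%). These counts are of 8 genes, or of the 6 that the 50% filter kept. They differ by 1 or 2 from that of the reported fit, and nothing particular to the members is read from them. TIAM1 kept its sign in its 14 refits, with an unadjusted limma p under 0.05 in 11. The exceptions were the fits without untreated replicate 2, CXCL12 replicate 2 or CXCL12 replicate 3. Refits that kept all 6 arrays reuse the same values and are no independent support. The replicate block left the TIAM1 change at -0.428 (limma unadjusted p = 0.0335) and the count at 1, and changed no call. DOCK2 reached -0.00971 and PREX1 -0.0587 without untreated replicate 1, with highest values of 0.193 and 0.416 without untreated replicate 2; no other member changed sign. Averaging probe sets changed no member, since each has 1. The causes of the other shifts were not tested. The number of arrays limits precision to a median half-width of 0.30 (log2) for the members' intervals.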
